A study of Mus musculus with 70 samples.

Results

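The CC chemokines examined were Ccl2, Ccl7, Ccl5, Ccl6, Ccl9 and Ccl20, 6 of the 21154 genes named on the array. They were chosen as members of one family of secreted ligands, and each was read by 1 of the 55681 probes.

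The RNA came from RENCA cells, a renal carcinoma line of BALB/c mice, made GFP-positive with a lentiviral vector in which the MND promoter drives eGFP. These GFP-RENCA cells were the parental P0 cells, and every later group carried the same transgene. The cells were passaged 6 times in wild-type female BALB/c mice, 6 weeks of age per the study's methods, by 3 routes, and the cell lines recovered after each passage were numbered P1 to P6. For Kidney Primary Tumor lines (KPT) the cells were placed under the capsule of the left kidney and taken back from the primary tumor. For Tail-to-Lung-Metastases lines (T-LM) they were injected into the tail vein and taken back from the lungs. For Kidney-to-Lung-Metastases lines (K-LM) they were placed under the kidney capsule and taken back from lung metastases. Per the study's methods, the recovered cells were kept in culture for about 2 weeks until they were as pure in GFP-positive cells as P0, so each sample is bulk RNA of a cultured line and not of a tumor. In bulk samples, fewer cells of a type and less RNA per cell cannot be told apart.

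There were 65 RNA samples in 19 groups, hybridised to 70 one-color arrays. P0 had 2 samples, the groups used in tests had 2 to 6, and K-LM P1 and K-LM P2 had 1 each. The labels name the replicates as separate samples but not separate mice, so p-values measure only the spread between these samples, and the small number of arrays limits the precision. Between 25.1% and 55.1% of the probes of an array were well above background. Of the epithelial markers of the labelled cells, Krt8, Krt18 and Pax8 were above background in all 65 samples and Krt19 in 64, whereas Epcam was in 5, Cdh1 in 7 and Pax2 in none. One T-LM P1 sample, replicate 6, is named without a route in its title and is placed by another of its labels. It stood apart from the other T-LM P1 samples in most of the chemokines. The fitted T-LM changes from P0 to P1 and from P1 to P6 are therefore also given without it.

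Chemokines are small secreted proteins that guide white blood cells along concentration gradients by binding G protein-coupled receptors, and the CC group is named for a pair of adjacent cysteines. Ccl2 and Ccl7 are monocyte attractants that act through Ccr2, Ccl5 draws T cells and monocytes through receptors such as Ccr1 and Ccr3, and Ccl6 and Ccl9 are rodent ligands of Ccr1 made largely by myeloid cells. Ccl20 binds Ccr6 and draws dendritic cells and lymphocytes. Tumor cells as well as macrophages and fibroblasts can make several of them, often after NF-kappaB signaling.

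Levels are log2 processed signals minus a 75th percentile of each array. That percentile was taken over the 11289 probes well above background on all 70 arrays and not over all probes. A level of 0 lies at that percentile and a step of 1 is a doubling. Levels of different probes are not set against each other. Ccl2 and Ccl7 were well above background in all 65 samples, Ccl5 in 57, Ccl6 in 48 and Ccl9 in 43. Ccl20 was above background on none of the 70 arrays, with levels from -9.71 to -7.34, and it entered no test. Over the samples, Ccl2 ran from -2.37 to 3.98 and Ccl7 from -4.98 to 2.43. Ccl5, Ccl6 and Ccl9 ran from the background up to -3.40, 3.56 and 0.85. The 19 groups formed a continuous order for most of the genes. Of the 18 pairs of groups that followed each other by mean level, only 1 pair did not overlap for Ccl7, and all of them overlapped for Ccl2, Ccl5, Ccl6 and Ccl9. P0 had the lowest mean level of Ccl2 and Ccl7, and it was among the 4 groups with no sample above background for Ccl6. The highest group was T-LM P6 for Ccl6, T-LM P4 for Ccl9, and the single K-LM P1 sample for Ccl2, Ccl5 and Ccl7.

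**Figure D1:**
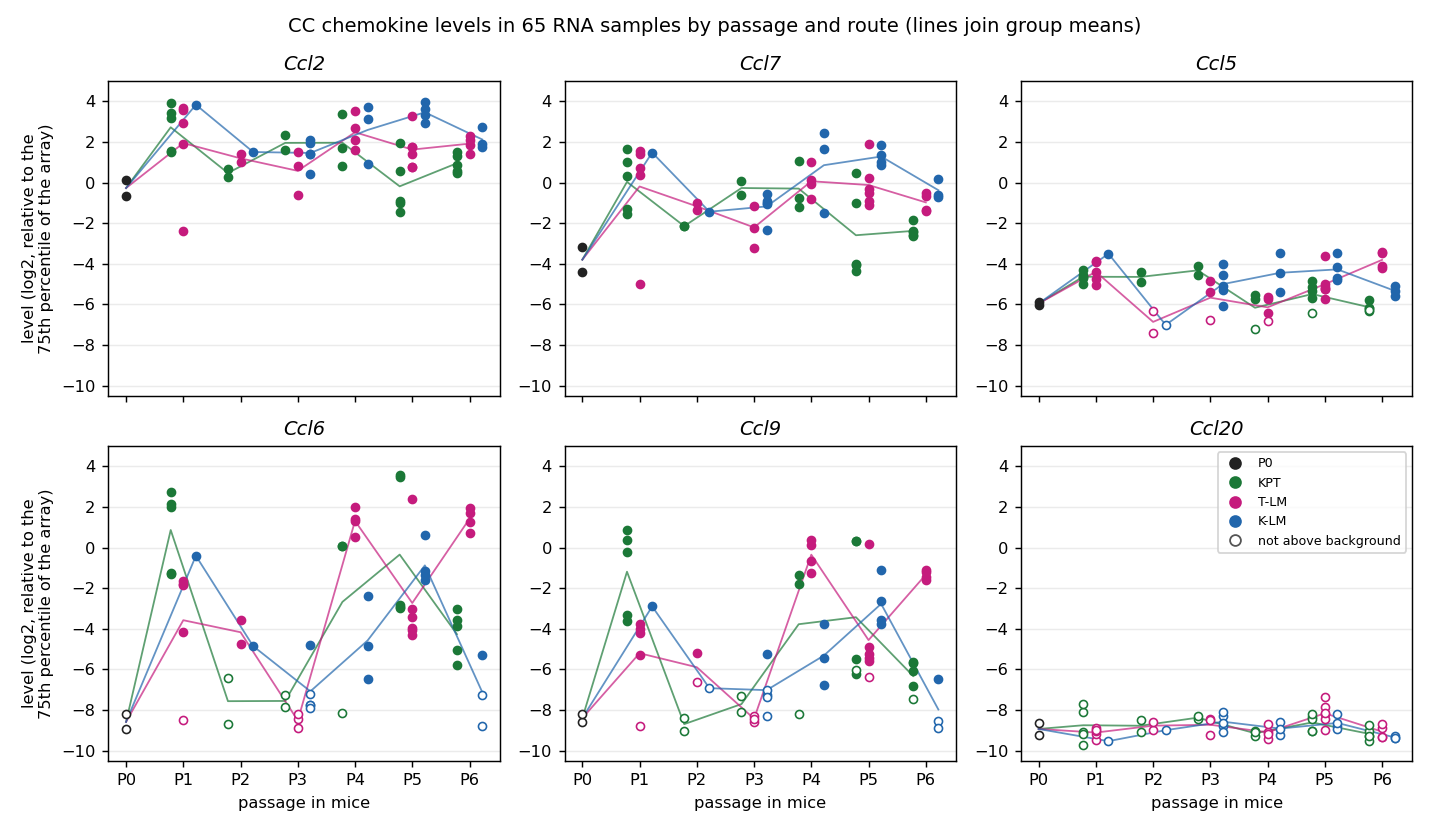
Level of each CC chemokine (log2, vertical axis) in 65 RNA samples by passage (horizontal axis) and route (color). Levels are relative to the array's 75th percentile over the probes well above background on all arrays. Each point is 1 sample, open points were not well above background and lines join group means. Ccl6 and Ccl9 moved between the background and levels above 0, T-LM P6 being the only P6 group with Ccl6 above 0, whereas Ccl20 stayed at background.

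The first question was whether the chemokines changed from the parental cells to the sixth passage of each route. In T-LM lines 3 of the 5 chemokines tested rose at an adjusted p of 0.01 or less in limma, namely Ccl6, Ccl9 and Ccl7, where 5.98% of the 21055 probes tested rose. In K-LM lines 2 of 5 rose, Ccl2 and Ccl7, where 3.73% of 21924 probes rose. In KPT lines none of the 5 passed, nor did any at an unadjusted p under 0.05, where 3.91% of 20690 probes passed in either direction. Ccl6 and Ccl9 were tested only because passaged samples had them above background, since neither P0 sample did. All 3 comparisons share the P0 samples. The median change over the 5 tested genes was 2.97 in T-LM, 1.69 in K-LM and 1.55 in KPT. With Ccl6 and Ccl9, at background in P0, set to the lower bounds explained below, or to no change where there is no bound, it was 2.97, 0.65 and 1.30 in the same order. The median over all probes lay between -0.14 and 0.15 in every comparison made here.

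Ccl2, the main monocyte attractant of the family, had levels of -0.68 and 0.14 in the P0 samples. Its levels in K-LM P6 were 1.89, 1.74 and 2.75. Each K-LM P6 sample was above each P0 sample. Ccl2 rose 5.23-fold in K-LM lines, by 2.39 ± 0.55 (SE) on the log2 scale, with a limma adjusted p of 0.00666. It did not pass without any 1 of the 5 samples (adjusted p of 0.011 to 0.134 over these), the highest being without P0 replicate 1. In T-LM P6 the levels were 1.42, 2.12, 2.28 and 1.85, also above both P0 samples, and the change of 2.25 ± 0.64 had an adjusted p of 0.0243. In KPT P6 they were 0.86, 1.32, 0.49, 0.59 and 1.49, still without overlap with P0, and the change of 1.30 ± 0.76 had an adjusted p of 0.395. All routes and passages in one model gave the K-LM change an adjusted p of 0.129, and a floor on dim probes 0.0119.

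Ccl7, a monocyte attractant encoded next to Ccl2, had levels of -4.41 and -3.18 in P0. In T-LM P6 it had levels of -1.38, -0.51, -0.68 and -1.33, and in K-LM P6 of -0.61, -0.71 and 0.19. Both metastasis groups lay wholly above P0. Ccl7 rose 7.83-fold in T-LM lines, by 2.97 ± 0.69 on the log2 scale (limma adjusted p of 0.00648). It rose 10.1-fold in K-LM lines, by 3.34 ± 0.70 (adjusted p of 0.00271). In KPT P6 the levels ran from -2.64 to -1.83, and the change was 1.55 ± 1.01 with an adjusted p of 0.468. The T-LM call did not hold without any 1 of the 6 samples (adjusted p of 0.0101 to 0.164, the highest without P0 replicate 1), and the K-LM call held in 2 of 5 such fits, failing without P0 replicate 1 (0.0918), P0 replicate 2 (0.0112) and K-LM P6 replicate 3 (0.0187). In one model of all routes neither call held, with adjusted p of 0.0673 in T-LM and 0.0556 in K-LM.

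Ccl6, a ligand of Ccr1 made largely by macrophages, had the largest changes. Its levels in P0 were -8.95 and -8.22, neither above background. In T-LM P6 they were 1.97, 1.72, 1.27 and 0.72, all above background and with no overlap. Ccl6 was at least 269-fold higher in T-LM P6 than in P0. That bound sets the T-LM P6 mean against, on each P0 array, the lowest level that any probe above background had there or the level of Ccl6 itself where higher. The fitted change was 9.30 ± 1.21 on the log2 scale with a limma adjusted p of 2.3e-05, and it passed in each of the 6 fits that left out 1 sample.

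In KPT P6 the levels of Ccl6 were -3.02, -3.86, -3.59, -5.06 and -5.79, all above background but far under T-LM P6. The change from P0 in KPT lines was 3.54 ± 2.11 with an adjusted p of 0.41 and a bound of at least 5.24-fold. In K-LM P6 Ccl6 was at -7.26, -8.77 and -5.28, and only the third of these was above background. The fitted change in K-LM lines, 1.69 ± 1.08 with an adjusted p of 0.437, gave no bound above 1-fold.

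Ccl9, another ligand of Ccr1, went the way of Ccl6. It was not above background in P0, with levels of -8.60 and -8.20, and it had levels of -1.13, -1.18, -1.45 and -1.58 in T-LM P6. The groups were far apart. Ccl9 was at least 39.9-fold higher in T-LM P6, with a fitted change of 6.69 ± 1.13 and a limma adjusted p of 0.000406. Without P0 replicate 1 the adjusted p was 0.0131. In KPT P6 its levels ran from -7.46 to -5.61 with 4 of 5 samples above background, and in K-LM P6 1 of 3 samples was, at -6.47. The fitted changes from P0 were 1.70 ± 1.84 (adjusted p of 0.71, at least 1.26-fold) in KPT and 0.57 ± 0.87 (adjusted p of 0.806, with no bound above 1-fold) in K-LM.

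Ccl5, a T cell and monocyte attractant, was dim throughout. P0 had levels of -5.89 and -6.02. T-LM P6 had levels of -4.12, -4.23, -3.48 and -3.40, all above P0, and the change of 2.11 ± 0.54 missed the threshold with an adjusted p of 0.0117. K-LM P6 had levels of -5.10, -5.56 and -5.33 and a change of 0.65 ± 0.47 (adjusted p of 0.505). KPT P6 lay around P0, from -6.34 to -5.77, with a change of -0.22 ± 0.41 (adjusted p of 0.848).

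**Figure D2:**
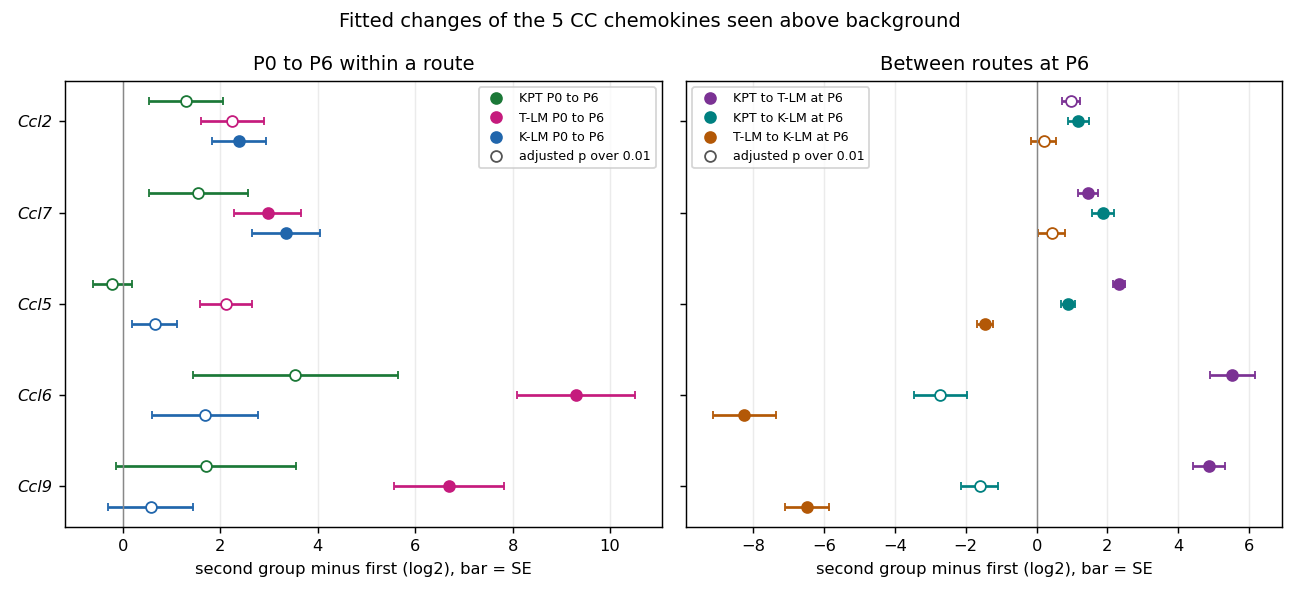
Fitted change (log2, horizontal axis, bars are SE) of the 5 CC chemokines that were above background in some samples, from P0 to P6 within each route (left) and between routes at P6 (right). Filled points had a limma adjusted p of 0.01 or less. Ccl6 and Ccl9 in T-LM lie apart from the other routes, with fitted changes of 9.30 and 6.69 from P0, where both were at background, and Ccl2 and Ccl7 lie close together in T-LM and K-LM.

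Slides were read as a batch. The 9 slides each held arrays of several groups, and 5 RNA samples (both P0 samples and 3 of KPT P6) were hybridised again on the last slide, which held 8 arrays. The fits with K-LM and those between routes at P6 carry a term for that slide, and arrays of 1 RNA sample enter them as a random block. On 1 slide that held a P0 and a T-LM P6 array, Ccl6 was at least 204-fold and Ccl9 at least 24-fold higher in the latter, and Ccl7 differed by 1.89 and Ccl2 by 1.24 on the log2 scale. Within the last slide, with the 2 P0 and the 3 K-LM P6 arrays, Ccl2 differed by 2.33 and Ccl7 by 3.27. On the 2 slides that held P0 and KPT P6 arrays, Ccl2 differed by 2.33 and 1.10, and Ccl6 was at least 1.33-fold and 11.3-fold higher in KPT P6. Repeat arrays of 1 RNA sample differed by at most 0.42 in Ccl2, Ccl5 and Ccl7, and by up to 1.47 in Ccl6 where it was not above background.

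The comparison from the third to the sixth passage asked what was gained late. In T-LM lines 2 of 5 chemokines rose, Ccl6 and Ccl9, where 5.74% of the probes tested rose. Neither was above background in any P0 or T-LM P3 sample. Both were thus tested only because other T-LM samples had them above background, and only a rise could be seen. In KPT lines none of 5 passed in limma (0.730% of probes in either direction), with 1 at an unadjusted p under 0.05, and in K-LM lines none of 5 passed (3.53% of probes), with 0 at that level. T-LM P3 was at background for Ccl6, with levels of -8.44, -8.88 and -8.22, and T-LM P6 had none of its samples below 0.72. Ccl6 was at least 248-fold higher at P6, a fitted change of 9.94 ± 1.07 with an adjusted p of 4.58e-06. Ccl9 was at -8.27, -8.59 and -8.42 in T-LM P3 and at least 36.8-fold higher at P6, with a fitted change of 7.09 ± 1.00 and an adjusted p of 8.71e-05. Both calls held in all 7 fits that left out 1 sample. Within the 3 slides that held both groups, Ccl6 was at least 244-fold, 303-fold and 142-fold higher at P6 and Ccl9 at least 32.6-fold, 45.8-fold and 28.9-fold.

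The other genes moved less over that span. Ccl5 in T-LM P3 was at -4.83, -5.38 and -6.79, the last not above background, and it was 1.86 ± 0.47 higher at P6 with an adjusted p of 0.0118. In KPT lines Ccl5 was at -4.54 and -4.11 in P3, above each KPT P6 sample, and the change of -1.81 ± 0.41 had an adjusted p of 0.0176. Ccl7 in KPT lines was at -0.60 and 0.07 in P3, also above each P6 sample, with a change of -2.13 ± 1.01 and an adjusted p of 0.225. Neither passed the threshold, nor did Ccl2 (-0.99 ± 0.76, adjusted p of 0.478), Ccl6 (at least 3.79-fold higher at P6, 0.394) or Ccl9 (no bound above 1-fold, 0.716) in KPT lines. In T-LM lines Ccl2 changed by 1.34 ± 0.57 (0.126) and Ccl7 by 1.23 ± 0.61 (0.197), and for both the groups overlapped. In K-LM lines the changes were 0.65 ± 0.51 for Ccl2, -0.28 ± 0.43 for Ccl5, 0.39 ± 1.00 for Ccl6, 0.64 ± 0.64 for Ccl7 and -0.66 ± 0.80 for Ccl9, with adjusted p of 0.398 to 0.822 and overlap in each.

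The path between these passages was not even. In T-LM lines Ccl6 was above background in 4 of 5 P1 samples and both P2 samples, in none of 3 at P3, in all 4 at P4 (levels of 0.52 to 2.01), in all 6 at P5 and in all 4 at P6. At T-LM P5 the lowest, median and highest levels of Ccl6 were -4.31, -3.69 and 2.40, and replicate 1 alone was above -3.04. In KPT lines Ccl6 was, in order of replicate, at -1.32, -1.25, 2.16, 2.73 and 2.00 in P1, at background in both P2 and both P3 samples, at 0.07, 0.08 and background in P4, and at 3.56, 3.46, -2.99, -2.83 and -2.92 in P5. Samples of 1 group thus fell at quite different levels. Over all samples, Ccl9 was above background in 43 of the 48 samples that had Ccl6 above background and in none of the others. In K-LM lines Ccl6 was above background in 1 of 5 samples at P3, all 3 at P4, all 4 at P5 (-1.59 to 0.60) and 1 of 3 at P6.

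The first passage was tested in KPT and T-LM lines. In KPT lines 1 of 5 chemokines rose from P0 to P1, Ccl6, where 3.30% of the probes tested rose. Ccl6 and Ccl9 were again tested only because passaged samples had them above background, so only a rise could be seen. Ccl6 was at least 183-fold higher, with a fitted change of 8.74 ± 2.04 and a limma adjusted p of 0.00874, and it passed in 2 of the 7 fits that left out 1 sample. The fits it failed lacked a P0 sample (0.105 and 0.078) or KPT P1 replicate 3, 4 or 5 (0.0174 to 0.0206). It also failed with the index of long mRNAs described below as covariate (0.0687, the index being -6.25 to -6.17 in P0 and -5.78 to -4.61 in KPT P1), with a floor on dim probes (0.0144), without a filter (0.0175) and with only the groups compared (0.0128). Ccl2 was 3.05 ± 0.80 higher, Ccl5 1.28 ± 0.38 and Ccl7 3.98 ± 1.05, and Ccl9 at least 44.1-fold, with adjusted p of 0.0169 to 0.0313, and none of these passed. In T-LM lines none of 5 passed (2.61% of probes in either direction), although each had an unadjusted p under 0.05. The changes were 2.28 ± 1.06 for Ccl2 (adjusted p of 0.176), 1.53 ± 0.51 for Ccl5 (0.0582) and 3.75 ± 1.14 for Ccl7 (0.0413), with Ccl6 at least 8.44-fold (0.0705) and Ccl9 at least 2.73-fold higher (0.153). Here replicate 6 had Ccl2 at -2.37, Ccl7 at -4.98, and Ccl6 and Ccl9 at background, while the other 4 samples had Ccl2 between 1.91 and 3.68 and Ccl7 between 0.39 and 1.55. Without replicate 6, 3 of the 5 passed, with fitted changes of 3.36 for Ccl2 (adjusted p of 0.00117), 4.95 for Ccl7 (2.85e-05) and 5.53 for Ccl6 (0.00276). Ccl5, with a fitted change of 1.69, and Ccl9, with 3.72, did not pass without it.

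From P1 to P6, 1 of 5 chemokines fell in KPT lines, Ccl5, where 6.27% of the probes tested fell. Its levels in KPT P1 were -4.68, -4.65, -5.00, -4.53 and -4.33, all above the KPT P6 samples. It fell 2.82-fold (SE 0.29 on the log2 scale, limma adjusted p of 0.000935), and with an index of long mRNAs as covariate the adjusted p was 0.0261. That index, the mean level of 15 long mRNAs minus that of 81 ribosomal protein genes, was between -5.78 and -4.61 in KPT P1 and between -6.66 and -5.51 in KPT P6. Its part in the change was not tested otherwise. The other 4 also had lower fitted levels at P6 but did not pass. Ccl6 changed by a fitted -5.20 ± 1.54 (36.8-fold, adjusted p of 0.02) and Ccl9 by -5.14 ± 1.39 (35.2-fold, 0.0117). Ccl7 changed by -2.43 ± 0.79 (0.0332) and Ccl2 by -1.75 ± 0.60 (0.0427). In T-LM lines 2 of 5 rose from P1 to P6, Ccl6 by 5.00 ± 1.20 (adjusted p of 0.00534) and Ccl9 by 3.87 ± 1.00 (0.00904), where 3.87% of the probes rose. Ccl2 (-0.03 ± 0.85), Ccl5 (0.59 ± 0.41) and Ccl7 (-0.78 ± 0.92) did not pass, with adjusted p of 0.327 to 0.987. Without T-LM P1 replicate 6 the changes of these genes were -1.11, 0.42 and -1.98, and none passed. For Ccl6 and Ccl9 the changes without that replicate were 3.77 and 2.97, with adjusted p of 0.0101 and 0.0233. With the index as covariate they were 3.39 (0.137) and 2.55 (0.181). With only the groups compared the adjusted p were 0.0297 and 0.0215. Leaving out T-LM P1 replicate 2 or any T-LM P6 sample also took both above the threshold, and leaving out T-LM P1 replicate 4 took Ccl9 above it.

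The second question was whether the routes differed at the sixth passage. From KPT to T-LM, 4 of 5 chemokines were higher in T-LM, all but Ccl2, where 7.02% of the 21696 probes tested were higher. From KPT to K-LM 3 of 5 were higher in K-LM, Ccl2, Ccl5 and Ccl7, against 6.26% of probes. From T-LM to K-LM 3 of 5 were lower in K-LM, Ccl5, Ccl6 and Ccl9, against 7.72% of probes. The 3 comparisons share samples. In the same order, the median changes over the 5 genes were 2.33, 0.88 and -1.45.

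Ccl6 separated T-LM P6 from both other routes. It was higher in T-LM than in KPT by 5.53 ± 0.65 on the log2 scale, 46.2-fold, with a limma adjusted p of 6.53e-06. It was lower in K-LM than in T-LM by a fitted -8.25 ± 0.88 (adjusted p of 4.37e-06), a comparison in which 1 of the 3 K-LM samples was above background. Between KPT and K-LM the difference of -2.72 ± 0.75 had an adjusted p of 0.0122 and the groups overlapped. Ccl9 was higher in T-LM than in KPT by 4.87 ± 0.45, 29.3-fold (4.65e-07), and lower in K-LM than in T-LM by a fitted -6.48 ± 0.62 (1.26e-06). All 4 of these calls held in every fit that left out 1 sample.

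Ccl5 was 5.02-fold higher in T-LM P6 than in KPT P6, by 2.33 ± 0.17, with an adjusted p of 2.01e-08. It was 1.84-fold higher in K-LM than in KPT, by 0.88 ± 0.20 (0.00289), and lower in K-LM than in T-LM by a fitted -1.45 ± 0.23 (0.000225). The 3 routes did not overlap in Ccl5, with T-LM highest and KPT lowest. The KPT to K-LM call was lost with the deposited log2 values (0.0103), without a filter on dim probes (0.0106), without KPT P6 replicate 1 (0.011) and without K-LM P6 replicate 1 (0.0233) or 3 (0.0109).

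Ccl7 was 2.73-fold higher in T-LM than in KPT, by 1.45 ± 0.27 (0.000855), and 3.66-fold higher in K-LM than in KPT, by 1.87 ± 0.32 (0.00032). KPT P6 did not overlap either. Between T-LM and K-LM it differed by 0.42 ± 0.37 with an adjusted p of 0.458. Ccl2 was 2.26-fold higher in K-LM than in KPT, by 1.18 ± 0.30 (0.00735), and 0.97 ± 0.26 higher in T-LM than in KPT with an adjusted p of 0.0121. The Ccl2 call was lost without KPT P6 replicate 1, 3 or 4 or K-LM P6 replicate 1 or 3, with adjusted p up to 0.0561, and also on the last slide alone (0.0172), without a filter on dim probes (0.0198) and with a floor on them (0.0105). A fit of all routes and passages in one model gave adjusted p above the threshold for Ccl2, Ccl5 and Ccl7 in K-LM against KPT (0.432, 0.243 and 0.241). It also did so for Ccl7 in T-LM against KPT (0.452) and for Ccl5 between T-LM and K-LM (0.0509).

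Within slides the differences at P6 had the same signs. On the 1 slide that held both KPT and T-LM, Ccl6 was 3.83 higher in T-LM, Ccl9 4.29, Ccl5 2.66 and Ccl7 1.12. On the last slide, with 3 arrays of each, K-LM was higher than KPT by 1.23 in Ccl2, 0.90 in Ccl5 and 1.89 in Ccl7. T-LM P6 and K-LM P6 shared no slide, so their difference rests on the RNA samples hybridised on the last slide and before.

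One passage earlier the routes stood otherwise. At P5 no chemokine of 5 passed between KPT and T-LM in limma (5.42% of the 19561 probes tested passed in either direction), with 2 at an unadjusted p under 0.05, and none of 5 passed between T-LM and K-LM (3.43% of probes), with 1 at that level. From KPT to K-LM, 2 of 5 were higher in K-LM, Ccl2 and Ccl7, where 2.91% of probes were higher. Ccl2 was at 3.60, 3.98, 3.35 and 2.91 in K-LM P5 and, in order of replicate, at 0.55, 1.93, -1.03, -1.46 and -0.92 in KPT P5, without overlap. It was 12.5-fold higher, by 3.65 ± 0.63 (adjusted p of 0.00145). Ccl7 was at 1.38, 1.87, 1.03 and 0.85 in K-LM P5 and at -0.99, 0.45, -4.00, -4.36 and -4.08 in KPT P5, again without overlap, and was 14.7-fold higher, by 3.88 ± 0.89 (0.00826). With the index of long mRNAs as covariate the adjusted p were 0.0934 and 0.213, the index being -8.37 to -7.42 in K-LM P5 and -7.33 to -6.26 in KPT P5. The Ccl7 call was also lost without any of the 4 K-LM P5 samples or KPT P5 replicate 3, 4 or 5 (0.0205 to 0.0255), with only the groups compared (0.0232) and without a filter on dim probes (0.0114). Ccl5 was 1.22 ± 0.40 higher in K-LM (0.0484), and Ccl6 (-0.53 ± 1.61) and Ccl9 (0.66 ± 1.55) overlapped.

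From KPT to T-LM at P5 the differences were 1.81 ± 0.57 in Ccl2 (adjusted p of 0.0462), 0.49 ± 0.36 in Ccl5, -2.39 ± 1.45 in Ccl6, 2.47 ± 0.80 in Ccl7 (0.0515) and -1.13 ± 1.40 in Ccl9. From T-LM to K-LM they were 1.84 ± 0.61 in Ccl2 (0.0613), 0.73 ± 0.39 in Ccl5, 1.85 ± 1.55 in Ccl6, 1.40 ± 0.85 in Ccl7 and 1.79 in Ccl9 (0.471). The groups overlapped in every gene of both comparisons. Within KPT P5, replicates 1 and 2 were the highest in Ccl2, Ccl7, Ccl6, Ccl9 and Ccl5 alike. These 2 samples had 17 and 18 of 19 macrophage and monocyte markers above background, Tyrobp at 0.16 and 0.77 and C1qa at -3.02 and -2.16, whereas replicates 3 to 5 had 8 markers each, Tyrobp between -5.79 and -4.31 and C1qa at background. In KPT P4, replicates 1 and 3, with Ccl6 at 0.07 and 0.08, had 16 markers each, and replicate 5, with Ccl6 at background, had 6. In KPT P1 the 3 samples with Ccl6 above 0 had 10 to 13 markers and the other 2 had 7 and 8, and T-LM P5 replicate 1 had 10 against 5 to 6 in the rest of its group. Other groups were mixed. T-LM P1 replicate 2 had 13 markers and Ccl6 at -4.13, whereas replicates 3 to 5 had 8 to 9 markers and Ccl6 at -1.83 to -1.63. T-LM P1 replicate 6 had 7 markers and Ccl6 at background. In T-LM P6, replicates 1 to 4 had 9, 14, 12 and 8 markers, with Ccl6 at 1.97, 1.72, 1.27 and 0.72. The part of these markers' cells in the chemokine levels was not tested.

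The chemokines moved in pairs over the 65 samples. Ccl6 and Ccl9 had a Pearson r of 0.975 and a Spearman rho of 0.972, and Ccl2 and Ccl7 had an r of 0.949 and a rho of 0.914. No other pair of the family had an r above 0.533. These are descriptions over samples that share slides, passages and parental cells, and many of the Ccl6 and Ccl9 values lie at background. In the RefSeq annotation of GRCm38.p6, Ccl2 and Ccl7 are neighbours on chromosome 11 with no gene between them. On the same chromosome Ccl6 and Ccl9 have 1 gene between them and no protein-coding gene, as do Ccl9 and Ccl5, whereas Ccl20 lies on chromosome 1.

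**Figure D3:**
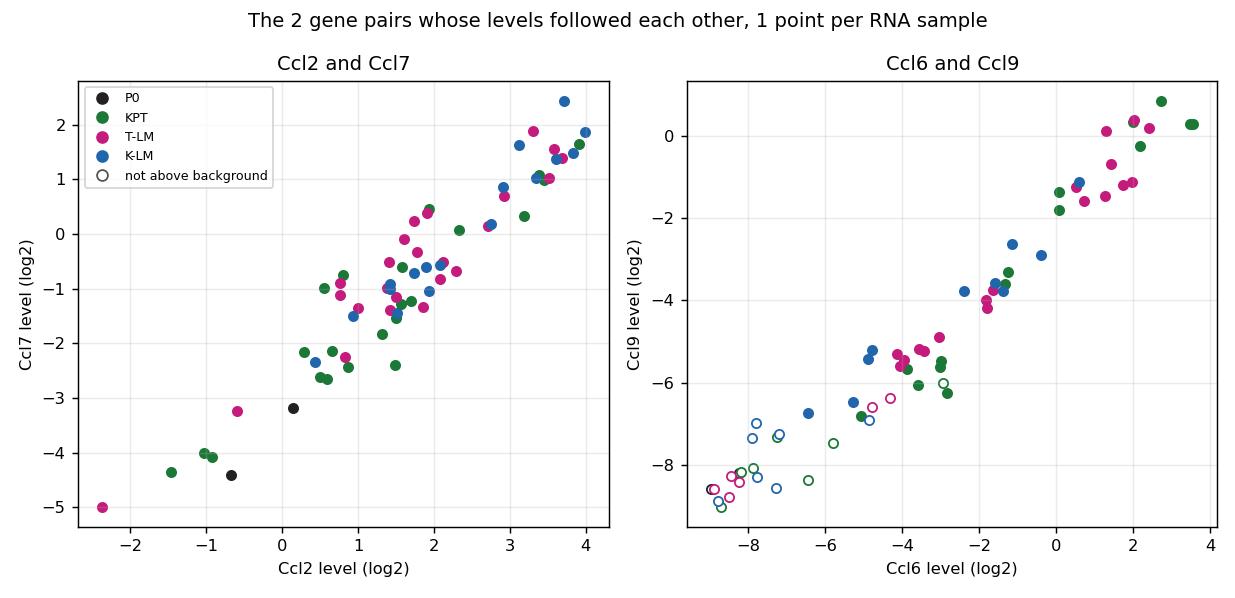
Levels (log2) of Ccl7 against Ccl2 (left) and of Ccl9 against Ccl6 (right), 1 point per RNA sample, colored by route. Open points had at least 1 of the genes not well above background. Both pairs fall on a line, with r of 0.949 and 0.975, and the second pair reaches into the background.

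The genes most like each chemokine differed between the pairs. Among 12187 genes that were above background in at least 7 samples, Ccl6 was followed most closely by Ccl9, Wfdc17 (r = 0.969) and Clec4n (r = 0.961), and Ccl9 by Ccl6, Clec4n (r = 0.973) and Tyrobp (r = 0.959). Clec4n is a myeloid lectin and Tyrobp an adapter of myeloid and NK cell receptors. Ccl2 was followed by Ccl7, Serpinb2 (r = 0.802), which encodes the plasminogen activator inhibitor PAI-2, and Gcnt2 (r = 0.788). Ccl7 was followed by Ccl2, Gng2 (r = 0.820) and Serpinb2 (r = 0.820). Ccl5 had no close follower, the nearest being Cd55b (r = 0.648), H2bc4 (r = 0.637) and Rarb (r = 0.630).

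Because Ccl6 and Ccl9 moved together over the samples, the DNA before their starts is shown. RefSeq sequences of promoters (GRCm38.p6) matched 3 of the 6 genes, Ccl6, Ccl9 and Ccl20. The 150 bases before the start are given below for Ccl6 (chr11:83593088-83593237, minus strand) and Ccl9 (chr11:83578637-83578786, minus strand), with capitals marking GGAA or its complement TTCC, the core that ETS factors such as the myeloid factor PU.1 bind.
Ccl6: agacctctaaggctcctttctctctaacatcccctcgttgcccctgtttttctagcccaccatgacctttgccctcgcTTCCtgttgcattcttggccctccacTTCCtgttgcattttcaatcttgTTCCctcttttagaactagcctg
Ccl9: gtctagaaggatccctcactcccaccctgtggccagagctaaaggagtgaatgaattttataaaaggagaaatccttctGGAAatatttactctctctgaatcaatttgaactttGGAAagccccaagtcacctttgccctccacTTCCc
GGAA, read on both strands over the whole window of the table, was found 4 times at Ccl6, 3 times at Ccl9 and 8 times at Ccl20, and 93.4% of the 32851 promoters of the table hold it, so its presence is common. The longer GAGGAA was found at Ccl20 alone of the 3, and 23.3% of promoters hold it. GGG followed by any 3 bases and TTCC, a form of the NF-kappaB site that contains the GGAA core on the other strand, was found once at Ccl9 and once at Ccl20, and 4.65% of promoters hold it. TATAAA, the TATA box, was found 3 times at Ccl9 and in 12.4% of promoters, and TTGCNNNAA, a form of the C/EBP site, once at Ccl20 and in 8.29% of promoters. These are matches of letters and not measured binding.

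The windows of Ccl6 and Ccl9 also share a stretch around their starts, shown because it is the closest ungapped match between them. Capitals mark the identical bases, 27 of 30, over chr11:83593083-83593112 for Ccl6 and chr11:83578598-83578627 for Ccl9 (both minus strand).
Ccl6: TGTTCCCTCTtTTAGAACTAGCcTGTTGtG
Ccl9: TGTTCCCTCTcTTAGAACTAGCaTGTTGgG
The stretch runs from base -25 to base 5 about the start of Ccl6 and from base 10 to base 39 of Ccl9.

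Markers of macrophages and monocytes, a cell type the recovered tissue holds, were read in the same samples. Of 19 such markers, Cd68, Csf1r, Itgam and Aif1 were above background in all 65 samples, P0 included, and Cd14 and Lyz2 in 64 and 63. The others were patchy, with Tyrobp in 36 samples, Fcer1g in 38, Adgre1 (F4/80) in 18, Ptprc (CD45) in 14, C1qa in 9 and Mertk in 1. In the 17 samples without Ccl6 above background, Tyrobp was above background in none and 5 to 7 markers were. In the 48 samples with Ccl6, Tyrobp was above background in 36 and 5 to 18 markers were, with a median of 8.5. By group, 15 to 16 markers were above background in T-LM P4, 8 to 14 in T-LM P6, 5 to 10 in T-LM P5 and 6 in T-LM P3. T-LM P1 had 7 to 13, or 8 to 13 without replicate 6. KPT P5 had 8 to 18, KPT P4 6 to 16, KPT P1 7 to 13 and KPT P6 7 to 9, while P0 had 6 to 7 and K-LM P6 6. The summed level of the list, which Cd68 and the other constant markers carry, was 1.40 to 1.62 in P0, 1.90 to 2.34 in KPT P6, 1.96 to 2.17 in T-LM P6 and 1.56 to 2.11 in K-LM P6.

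**Figure D4:**
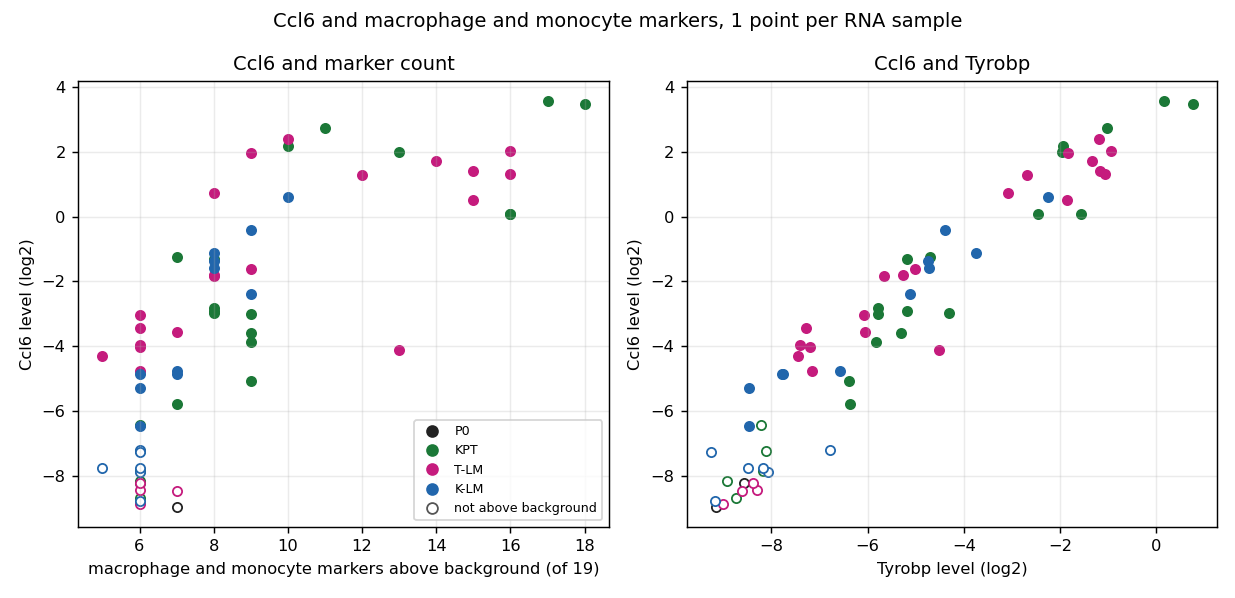
Level of Ccl6 (log2, vertical axis) against the number of 19 macrophage and monocyte markers above background (left) and against the level of Tyrobp (log2, right), 1 point per RNA sample, colored by route. Open points had Ccl6 not above background. Ccl6 was highest in the 2 samples with the most markers, KPT P5 replicates 1 and 2 (17 and 18 markers). T-LM P1 replicate 2 had 13 markers with Ccl6 at -4.13. Of the 48 samples with Ccl6, 12 had no Tyrobp above background.

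In T-LM P6, Mertk, Fcgr1, Cx3cr1, C1qb and C1qc were not above background in any sample. Of 5 markers of alveolar macrophages, Fabp4 and Car4 were above background in all 65 samples, Chil3 in 10, Marco in 7 and Siglecf in 1. Chil3, Marco and Siglecf were above background in no T-LM P5 or T-LM P6 sample. From P0 to P6, 1 of 3 alveolar markers tested rose in T-LM, 1 of 3 in K-LM and 1 of 2 in KPT. Of all probes 5.98%, 3.73% and 3.43% rose in these comparisons. The general macrophage and monocyte list follows. From P0 to P6 of T-LM, 4 of the 16 markers tested rose, against 5.98% of probes, and none fell. Only 7 of the 19 markers were above background in any P0 sample, so a fall could not have been seen for the others. Among the 4 that rose, Tyrobp was at least 21.4-fold (adjusted p of 0.00161) and Fcer1g at least 24.3-fold higher (0.00197), neither being above background in P0. From P3 to P6 of T-LM, 5 of 16 rose and none fell, where 5.74% of probes rose. Only 6 of the 19 were above background in any T-LM P3 sample, so a fall could not have been seen for the others. From KPT to T-LM at P6, 8 of 12 were higher and 1 lower, against 7.02% and 4.53% of probes. Only 9 of the 19 were above background in any KPT P6 sample, so the others could not have been lower in T-LM. From T-LM to K-LM at P6, 8 of 12 were lower and none higher, against 7.72% and 4.18% of probes. Only 6 of the 19 were above background in any K-LM P6 sample, so the others could not have been higher there. Of 4 markers of lung epithelium, 2 of the 4 tested rose from P0 to P6 of T-LM, against 5.98% of probes. In KPT and in K-LM 1 marker was tested and rose, by 1.30 and 2.49, where 3.43% and 3.73% of probes rose. The surfactant gene Sftpc, a marker of this list, was at -3.64, -0.88, -2.57 and -3.95 in T-LM P6. That was at least 14.8-fold higher than in P0, where Sftpc was not above background (adjusted p of 0.000343). All 5 fibroblast markers were higher in T-LM than in KPT at P6, against 7.02% of probes. From P0 to P6 of T-LM 4 of the 5 rose, against the same 5.98%, with Col1a1 a fitted 7.55 higher (0.000288). Col1a1 was at -7.31 and -7.78 in P0. These lie under -6.64, the median over arrays of the lowest level above background, so the size of its change is uncertain. The part of macrophages, lung epithelium and fibroblasts in the Ccl6 and Ccl9 levels was not tested.

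The other CC chemokines of the array, 15 listed and 14 with a probe, were mostly at background, and 5 to 6 could be tested in a comparison. From P0 to P6, 3 of 6 rose in T-LM (5.98% of all probes), 2 of 5 in K-LM (3.73%) and 1 of 6 in KPT (3.43%), and none fell. In the same order, 3 of the 6, 2 of the 5 and 3 of the 6 were not above background in P0. Those genes entered the test through other samples, and a fall could not have been seen for them. Ccl8, a monocyte attractant related to Ccl2 and Ccl7, rose in all 3, by 4.79 ± 0.58 in K-LM, 3.67 ± 0.39 in T-LM and 3.04 ± 0.46 in KPT. Ccl3, an inflammatory ligand of Ccr1, was not above background in P0 and at least 14.2-fold higher in T-LM P6 (adjusted p of 0.0026), and Ccl17, a ligand of Ccr4, rose in T-LM by 2.43 ± 0.48 and in K-LM by 1.48 ± 0.35. The median change of the tested genes was 2.82 in T-LM, 0.91 in K-LM and 0.40 in KPT, and 2.16, 0 and 0.33 with genes at background in one group set to their bound as above. From P3 to P6, 3 of 6 rose in T-LM (Ccl3, Ccl4 and Ccl8, against 5.74% of probes), none of 6 passed in KPT, and 1 of 5 rose in K-LM (Ccl8, by 2.30 ± 0.53, against 2.35%).

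Between routes at P6, 3 of 5 other CC chemokines were higher in T-LM than in KPT and none lower, against 7.02% and 4.53% of probes. Ccl3 was 4.89 ± 0.46 higher and Ccl17 1.67 ± 0.22 higher, and Ccl4, a relative of Ccl3, at least 4.21-fold higher. From KPT to K-LM Ccl8 was 1.61 ± 0.20 higher and Ccl25, a thymic ligand of Ccr9, lower by -0.88 ± 0.13, where 9.83% of probes were lower. From T-LM to K-LM, Ccl3, Ccl4 and Ccl25 were lower and Ccl8 1.02 ± 0.23 higher, where 4.18% of probes were higher. Ccl3 and Ccl4 were thus high in the same P6 route as Ccl6 and Ccl9.

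The receptors of these ligands were largely at background. Ccr2, the receptor of Ccl2 and Ccl7, was above background in 1 of 65 samples, Ccr1 in none and Ccr6, the receptor of Ccl20, in 2. Ccr7, the receptor of Ccl19 and Ccl21, was above background in all 65 and rose from P0 to P6 in every route, by 4.13 ± 0.47 in KPT, 3.90 ± 0.41 in K-LM and 3.24 ± 0.36 in T-LM. In T-LM, 3 of 6 receptors tested rose from P0, Ackr3 (an atypical receptor of CXCL12, 3.78 ± 0.54), Ccr7 and Ccrl2 (at least 2.29-fold), whereas in KPT 1 of 6 and in K-LM 1 of 5 did, Ccr7 in both. Of all probes 5.98%, 3.43% and 3.73% rose in these comparisons. The median change of the tested receptors was 1.35 in T-LM, 1.16 in K-LM and 0.02 in KPT, and 0.60, 0 and 0 with genes at background in one group set to their bound. From P3 to P6, 2 of 6 rose in T-LM (5.74% of probes), Ackr3 by 3.82 ± 0.48 and Ccrl2 at least 2.12-fold. At P6, 3 of 5 receptors tested were higher and 1 lower in T-LM than in KPT, against 7.02% and 4.53% of probes. From KPT to K-LM, 3 of 5 were higher and none lower, against 6.26% and 9.83% of probes. From T-LM to K-LM, 1 of 5 was lower and none higher, against 7.72% and 4.18%. Among these, Ackr3 was higher than in KPT in T-LM by 4.00 ± 0.34 and in K-LM by 2.45 ± 0.40. Ccr7 was lower in T-LM than in KPT by -0.89 ± 0.22, and the others called are not named.

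Of 17 genes of the NF-kappaB pathway and its cytokine inducers, 13 to 15 were tested in a comparison, with no call in KPT lines from P0 to P6 and 1 in each metastasis route, Il6. That is 1 of 13 tested in T-LM, where 5.98% of probes rose, and 1 of 15 in K-LM, where 3.73% did. Il6, an inflammatory cytokine, was not above background in P0, at least 50.2-fold higher in T-LM P6 (adjusted p of 0.00024) and at least 6.55-fold higher in K-LM P6 (0.00242). At P6, 6 of 15 were higher in T-LM than in KPT and 5 of 15 in K-LM than in KPT, against 7.02% and 6.26% of probes, with none lower in either. In T-LM the 3 with the largest fitted change were Il6 by 5.88 ± 0.53, Il1b (at least 7.24-fold) and Il1a (at least 1.28-fold), and since Il1b and Il1a were not above background in KPT P6 their place in that order is not measured. In K-LM they were Il6 by 3.44 ± 0.61, Nfkbiz by 1.75 ± 0.37 and Cebpd by 1.52 ± 0.29. From P3 to P6 of T-LM, 3 of 13 rose (5.74% of probes), Il6 by 5.82 ± 1.00, Il1b at least 5.88-fold and Il1a at least 1.04-fold. From T-LM to K-LM, Il1b and Il1a were lower and Cebpb was 0.68 ± 0.17 higher. The list's median change was 0.45 from KPT to T-LM, 0.38 from KPT to K-LM and 0.01 from T-LM to K-LM. With genes at background in one group set to their bound as above, it was 0.38, 0.38 and 0 in the same order.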

How the data were processed

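Per the deposited labels and the study's methods, total RNA was labelled with Cy5 and hybridised to SurePrint G3 mouse arrays. The authors deposited scanner files, whose processed-signal and median-signal columns hold intensity values, and a table of log2 values (medians of 6.24 to 6.28 per array, scale checked against the scanner values, normalization not given in the sources used here). The study's methods name limma with an adjusted p of 0.01 for passage comparisons within a route, which was followed here.

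From the processed signal, control spots and outlier-marked spots were left out, spots of a probe were averaged and log2 was taken. The 75th percentile over the 11289 probes well above background on all 70 arrays was then subtracted, since 69 arrays had under 50% of probes above background. Genes were named through RefSeq transcripts (28026 of 55681 probes), and the brightest probe on average stood for a gene. A probe was tested when above background on at least 2 arrays of a fit. Tests used limma 3.58.1 in R 4.3.3 (lmFit, eBayes), with all P0 and P2 to P6 samples of a route in one fit, all P0 and P1 to P6 samples for comparisons with P1, all P6 and P0 samples between routes at P6, and the P5 samples at P5. Fits with K-LM and those at P6 had a term for the last slide, and duplicateCorrelation took arrays of 1 RNA sample as a random block. The K-LM fit of P0 and P2 to P6 also held both arrays of the KPT P6 samples that were hybridised again. The threshold was a Benjamini-Hochberg adjusted p of 0.01 over all probes tested. KPT and T-LM fits from P0 used the first array of a repeated sample, while levels average both arrays, so means can differ from fitted changes. The fits were tested on simulated data.

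The chemokines and lists were chosen with earlier results of these data known. All 6 were named in each comparison, Ccl20 as untested throughout. Of each list up to 3 genes with the largest fitted change past the threshold were named for P0 to P6, P3 to P6 and P6, and the 3 genes of highest correlation for each chemokine but Ccl20, whose level was background. Figures were drawn with matplotlib 3.10.9. Alternatives changed the scaling, background correction, filter, slide term, replicate block, samples of the fit and an RNA quality covariate, or left out 1 sample. A single receptor of the lists is not reported here.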

Additional observations from a re-analysis of the deposited data

Results flagged for a closer look

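Of 54 combinations of a group with 4 to 10 samples and a chemokine, 6 had a sample whose gap to its nearest neighbour was above the critical value of Dixon's test, which chance exceeds in about 1 group in 20. T-LM P5 replicate 1 was the highest of its group in Ccl5 (level -3.63), Ccl6 (2.40) and Ccl9 (0.198). K-LM P3 replicate 3 was the highest in Ccl6 (-4.78), the only sample of that group with Ccl6 above background. T-LM P1 replicate 6 was the lowest in Ccl7 (-4.98), and K-LM P3 replicate 1 was the lowest in Ccl7 (-2.34).

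The change from P0 to P6 differed between routes, by limma's test of the difference at P6, which all routes share P0 for. T-LM exceeded KPT by 2.33 in Ccl5, 5.53 in Ccl6, 1.45 in Ccl7 and 4.87 in Ccl9 on the log2 scale. K-LM exceeded KPT by 1.18 in Ccl2, 0.88 in Ccl5 and 1.87 in Ccl7. K-LM minus T-LM was -1.45 in Ccl5, -8.25 in Ccl6 and -6.48 in Ccl9.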

How the results depend on the processing

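P0 had 2 samples and K-LM P6 had 3, the long-mRNA index differed between passages, and Ccl5 and the low values of Ccl6 and Ccl9 lay near background, which limits small differences there. Of 278 refits of called changes under the settings below, 245 kept direction and call, 33 lost the call and none changed sign. With 1 sample left out, 128 of 176 kept both and 48 lost the call. Of 677 refits of changes that were not called, 48 passed and 11 changed sign, and of 459 with 1 sample left out, 13 passed and 10 changed sign. The cause was not tested unless stated. The number of chemokines called was within 1.5 times the reported number in 158 of 200 other settings.

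The number called changed as follows. With the filter asking for every array of a fit to be above background, fewer chemokines were tested, and 1 was called from P0 to P6 and 0 from P3 to P6 and from P1 to P6 in T-LM, 0 from P0 to P1 and from P1 to P6 in KPT, 1 between KPT and T-LM at P6 and 0 between T-LM and K-LM at P6. Without a filter on dim probes, 0 were called from P0 to P1 in KPT and 1 each from P1 to P6 in T-LM, between KPT and K-LM at P6 and between KPT and K-LM at P5. With a floor on dim probes, 1 was called from P0 to P6 in K-LM, 1 from P3 to P6, 0 from P0 to P1 and 2 from P1 to P6 in KPT. Both the deposited log2 values and normexp with quantile normalization of the median signal gave 1 call from P3 to P6 and 2 from P1 to P6 in KPT. All routes and passages in one model gave 0 calls from P0 to P6 in K-LM, 3 from P0 to P1 and 3 from P1 to P6 in KPT, 1 from P1 to P6 in T-LM and 0 between KPT and K-LM at P6. Only the groups compared gave 1 call from P0 to P6, 2 from P3 to P6, 0 from P0 to P1 and 4 from P1 to P6 in KPT, 5 from P0 to P6 and 0 from P1 to P6 in T-LM, and 1 between KPT and K-LM at P5. The index as covariate gave 0 calls from P0 to P1 and from P1 to P6 in KPT, from P1 to P6 in T-LM and between KPT and K-LM at P5. Slide as a random block gave 3 calls from P0 to P1 and 2 from P1 to P6 in KPT and 5 between KPT and K-LM at P6, where no slide term also gave 5. The last slide alone gave 1 call from P0 to P6 in KPT.

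Changes that turned sign were all uncalled. Ccl6 in K-LM from P3 to P6, 0.39 as reported, was -0.11 with normexp and quantile normalization, -0.063 with the deposited values, -0.067 with the floor, -0.17 with the index and -0.025 without the slide term. Ccl5 in that comparison was 0.0030 with the index, Ccl2 in T-LM from P1 to P6 was 0.17 with the percentile over all probes, and Ccl9 between KPT and K-LM at P5 was -0.90 with the index.

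With 1 sample left out, the numbers called were 1 to 2 for T-LM and 0 to 1 for K-LM from P0 to P6, 2 to 3 for T-LM from P3 to P6, 0 to 2 for KPT and 0 to 3 for T-LM from P0 to P1, 1 to 2 for KPT and 0 to 2 for T-LM from P1 to P6, 1 to 4 between KPT and K-LM and 4 to 5 between KPT and T-LM at P6, and 1 to 2 between KPT and K-LM and 0 to 2 between KPT and T-LM at P5. Uncalled changes that turned sign ranged from -0.18 to 1.03 (Ccl9, K-LM from P0 to P6), -0.52 to 1.23 (Ccl6, K-LM from P3 to P6), -1.11 to 0.41 (Ccl2, T-LM from P1 to P6), -0.11 to 0.40 (Ccl2, T-LM to K-LM at P6), -1.19 to 0.44 (Ccl6) and -0.048 to 1.59 (Ccl9) from KPT to K-LM at P5.

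Replicate numbers were not taken as pairs of samples. Of the 16 comparisons, 9 had at least 3 shared numbers. None of these had all of its same-numbered pairs correlated above 0.1 over 11549 probes. Some pairs were, such as 3 of 5 from KPT to T-LM at P5 (correlations of -0.35 to 0.58). Comparisons with fewer shared numbers could not meet the rule, so pairing was not excluded. With the replicate block, 0 chemokines were called from P0 to P1 in KPT and from P1 to P6 in T-LM, Ccl7 in T-LM from P0 to P6 had an adjusted p of 0.035, and Ccl5 in KPT from P0 to P6 was 0.067, Ccl6 in K-LM from P3 to P6 -0.014 and Ccl6 between KPT and K-LM at P5 0.33, each of these uncalled and opposite in sign to the reported value. Other probes of the same gene could not be tried, as each chemokine had 1 probe, and the normexp alternative used the median signal.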
